A study of Mus musculus with 13 samples.

Results

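The glucose uptake and glycolysis genes described here are 10 genes that carry glucose into the cell, phosphorylate and split it, and direct the pyruvate that results. They were chosen by symbol from a table of 25965 genes, and each symbol occurred on 1 row. The genes were Slc2a1 and Slc2a3 (glucose carriers), Hk1 and Hk2 (hexokinases), Pfkl and Pfkp (phosphofructokinases), Aldoc (an aldolase), Ldha and Ldhb (subunits of lactate dehydrogenase) and Pdk1 (a kinase that inhibits pyruvate dehydrogenase). All 10 passed the filter on low expression that left 13406 genes for testing.

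The cells were a line of female mouse embryonic stem cells (mESCs) from an FVB/NJ mother and a CAST/EiJ father. Day0 cells had been grown in 2i+LIF, a serum-free medium with a pair of kinase inhibitors and leukaemia inhibitory factor that holds mESCs undifferentiated, and were represented by 1 library. The line was kept in suspension at reduced oxygen and moved to gelatin-coated plates before differentiation, and the sources used here do not say in which of these states Day0 was harvested. The other 12 libraries came from days 4, 5, 6 and 7 after the medium was changed stepwise to DME HiHi, which holds serum, glucose and pyruvate. Those cells received a retroviral short hairpin RNA on day 2 and puromycin from day 3. The hairpin was a nonsilencing control (Nons), Smarcc1.6 or Smarcc1.7, the latter both directed at Smarcc1, which encodes a scaffold protein of the nucleosome remodelling complex BAF. The differentiation was not directed to 1 lineage, all groups carried a hairpin and puromycin resistance except Day0, and each library is 1 culture, so the 4 days served as replicates of a group. With bulk RNA, fewer cells of a type and less RNA per cell cannot be told apart.

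Glucose enters mESCs through facilitative carriers and is trapped by hexokinase. Phosphofructokinase catalyses the committed step of glycolysis, aldolase splits the six-carbon sugar, and lactate dehydrogenase interconverts pyruvate and lactate. Pdk1 phosphorylates and inactivates pyruvate dehydrogenase and so limits the entry of pyruvate into the citric acid cycle. Most steps have tissue-specific forms encoded by separate genes. mESCs in culture are known for high glycolytic flux, and several of these genes are textbook targets of the hypoxia-inducible transcription factors, which recognise the letters ACGTG or GCGTG.

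The hairpins define the comparison, so their guide strands are shown with bases 2 to 8 in capitals, the seed that leads target pairing.
Smarcc1.6: uGUAACUGcuucuucauccugc
Smarcc1.7: uUGCUCAUcuucuuccuucuga
Nons: cUUACUCUcgcccaagcgagag
The full complement of the Smarcc1.6 guide lies in coding exon 13 of Smarcc1 (chr9:110177472-110177493, mm10) and that of Smarcc1.7 in coding exon 11 (chr9:110173911-110173932). The Nons guide has no such site in Smarcc1. No annotated transcript of the 10 genes holds the full complement of any of the 3 guides (0 transcripts). Smarcc1 itself was lower than in same-day Nons in 8 of 8 comparisons, by -1.19 ± 0.48 (SD, n = 4 days) log2 units with Smarcc1.6 and by -0.93 ± 0.37 (SD, n = 4 days) with Smarcc1.7.

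Windows of 250 bases before annotated starts of Ldha, Hk2 and Pdk1 (RefSeq, GRCm38.p6) are shown, for Ldha and Pdk1 that of the first of 2 starts, because Ldha rose from day 4 to day 7, Hk2 did not pass that test and Pdk1 was higher in knockdown. Capitals mark ACGTG or GCGTG on either strand (read as CACGT or CACGC where the match is on the other strand), and a palindrome CACGTG counts as a match on each strand.
Ldha, chr7:46845554-46845803, plus strand: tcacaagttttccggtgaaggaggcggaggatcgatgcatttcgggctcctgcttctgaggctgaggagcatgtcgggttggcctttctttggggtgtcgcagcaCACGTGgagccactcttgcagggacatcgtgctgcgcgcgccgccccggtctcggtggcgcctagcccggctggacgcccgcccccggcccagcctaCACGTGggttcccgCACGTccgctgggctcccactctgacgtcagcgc
Hk2, chr6:82774455-82774704, minus strand: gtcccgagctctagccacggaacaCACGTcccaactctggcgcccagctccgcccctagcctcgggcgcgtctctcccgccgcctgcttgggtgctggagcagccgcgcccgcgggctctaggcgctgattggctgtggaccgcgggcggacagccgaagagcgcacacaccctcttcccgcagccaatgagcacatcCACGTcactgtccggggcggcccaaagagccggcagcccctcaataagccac
Pdk1, chr2:71872974-71873223, plus strand: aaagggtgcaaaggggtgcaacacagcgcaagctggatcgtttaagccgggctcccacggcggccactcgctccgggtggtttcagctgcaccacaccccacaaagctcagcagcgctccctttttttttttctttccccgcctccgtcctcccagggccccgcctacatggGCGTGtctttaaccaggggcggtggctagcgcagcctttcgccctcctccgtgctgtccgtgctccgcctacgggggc
The Ldha window shown holds 5 matches of ACGTG in 3 separate stretches, the Hk2 window 2 matches of ACGTG and the Pdk1 window shown 1 match of GCGTG. The window of the other start of Ldha (chr7:46846832-46847081) holds 0 matches of ACGTG and 1 of GCGTG, and that of Pdk1 (chr2:71874654-71874903) holds 0 of either. The window of Pfkp, also higher in knockdown and not shown, holds 0 matches of ACGTG and 3 of GCGTG. Of 32817 windows of the same length before annotated starts, 38.6% hold at least 1 match of either kind, and 6.58% hold 3 or more. For ACGTG alone, 16.6% hold at least 1 match and 6.81% hold 2 or more. For GCGTG alone the shares are 28.1% and 8.63%. The shown windows of both Ldha, which rose, and Hk2, which did not, hold matches of ACGTG. A match is a description of letters and not a bound site. RefSeq windows were found for 9 of the 10 genes, and none for Slc2a3.

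Read assignment split the libraries into 2 sets unrelated to the hairpins. Genes received 85.3% to 86.5% of the mapped reads of the Day0 library and of the 3 from day 6, and processed pseudogenes took 1.48% to 1.68% of reads, against 91.6% to 92.6% and 0.332% to 0.45% in the other 9 libraries. Depth was 13993440 to 63548079 mapped reads, and the fewest reads on any of the 10 genes in a library were 82 (Aldoc, Smarcc1.7, day 5). Levels are given as log2 CPM, the binary logarithm of reads scaled to a common number of mapped reads. Day 7 was compared with day 4, which lie in the same set, and Day0 with day 6, which lie in the other. Comparisons of Day0 or day 6 with days 4, 5 or 7 cross the sets. Of 7 markers of undifferentiated mESCs, 5 fell from day 4 to day 7, against 31.7% of all tested genes. In knockdown 5 of the 7 were higher than in Nons, against 6.88% of all tested genes. The summed level of the 7 was 1090 to 1740 CPM for Nons, 1370 to 2540 for Smarcc1.6 and 1100 to 2110 for Smarcc1.7. Of the tested markers of other cell types, 1 of 3 for mesoderm was lower in knockdown (T, at -2.50 ± 0.67, SE, adjusted p = 0.0341), with Acta2 at -0.92 and Hand1 at 0.26 on the log2 scale. Likewise 1 of 3 for endoderm was lower (Sox17, at -0.88 ± 0.24, SE, adjusted p = 0.0369), with Gata4 at -0.36 and Gata6 at 0.29. Of 3 neural markers Sox1 was higher (2.07 ± 0.61, SE, adjusted p = 0.0478), with Pax6 at 0.21 and Nes at -0.41. Of 4 primed pluripotency markers Otx2 was higher (0.61 ± 0.14, SE, adjusted p = 0.0167), with Fgf5 at -0.21, Dnmt3b at 0.20 and Pou3f1 at 0.01. Of 2 fibroblast markers Thy1 was higher (0.83 ± 0.20, SE, adjusted p = 0.024), with Col1a1 at 0.15. From day 4 to day 7 Thy1 changed by -2.24 and Col1a1 by 6.21. Without day 6 none of these 5 lists had a marker called in knockdown (0 genes). The 2 blood markers had at most 3 reads in every library, and Hbb-b1 had 0 in all. The part of cell composition in the changes below was not tested.

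The first comparison asked how the 10 genes changed as the cells differentiated. From day 4 to day 7, 8 genes rose, Pfkp fell and Hk2 did not pass the test. As a background, 72.5% of tested genes passed this test (limma, Benjamini-Hochberg adjusted p under 0.05), 40.7% higher and 31.7% lower, so a change as such did not set the genes apart. The median log2 change was 1.46 over the 10 genes and 0.11 over all tested genes. When each library was centred on its autosomal median, the median over all genes moved from 0.11 to -0.13, the calls over all genes moved from 5459 higher and 4256 lower to 4240 higher and 5596 lower, and Hk1 and Pdk1 were no longer called. The split for the change per day moved likewise, from 4679 higher and 3435 lower to 3574 higher and 4731 lower.

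**Figure D1:**
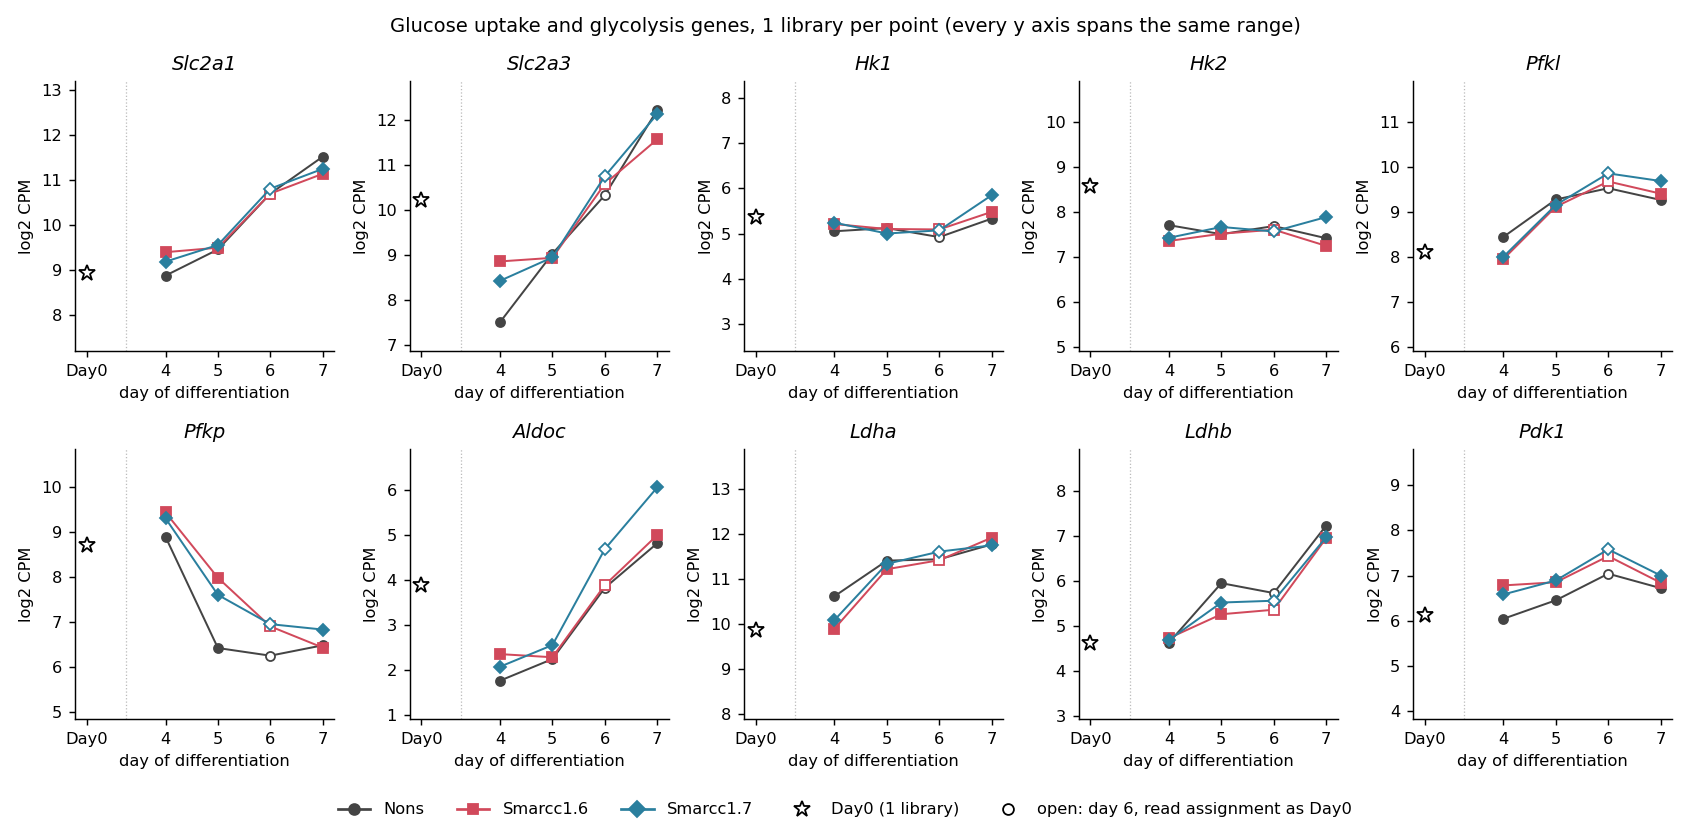
Log2 CPM of each gene (y axis) at Day0 and on days 4 to 7 (x axis), 1 library per point, with open symbols for the 4 libraries of the set formed by Day0 and day 6; every y axis spans the same number of log2 units. Slc2a1, Slc2a3, Aldoc and Ldhb climbed in all 3 groups, Pfkp dropped between days 4 and 5, and Hk2 stayed between 7.24 and 7.88 after Day0.

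Both glucose carriers rose. Slc2a3, which encodes the high-affinity carrier GLUT3, stood at a log2 CPM of 7.51, 9.03, 10.33 and 12.22 in Nons on days 4, 5, 6 and 7. The Smarcc1.6 libraries stood at 8.86, 8.94, 10.58 and 11.57 on those days, and the Smarcc1.7 libraries at 8.43, 8.95, 10.75 and 12.13. The level climbed between each pair of successive days except for a near standstill from day 4 to day 5 with Smarcc1.6, and the day 7 libraries of all groups lay above every earlier one. The change from day 4 to day 7 was 3.71 ± 0.27 (SE, 13.1-fold, adjusted p = 6.42e-07, limma), with 4.71 for Nons, 2.72 for Smarcc1.6 and 3.70 for Smarcc1.7. Slc2a3 was not a gene that only appeared with differentiation, since Day0 stood at 10.22, above all libraries of days 4 and 5. Day0 to day 6, within 1 set of libraries, amounted to a rise of 0.11 for Nons, 0.35 for Smarcc1.6 and 0.53 for Smarcc1.7.

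Slc2a1, which encodes the widely expressed carrier GLUT1, stood at 8.93 at Day0 and at 8.88, 9.46, 10.70 and 11.52 in Nons. It was 9.40, 9.50, 10.70 and 11.14 with Smarcc1.6, and 9.19, 9.56, 10.81 and 11.25 with Smarcc1.7. It rose by 2.15 ± 0.13 (SE, 4.43-fold, adjusted p = 2.19e-07) from day 4 to day 7. The step between days 5 and 6, which crosses the sets of read assignment, was 1.20 to 1.25 in the 3 groups, out of changes from day 4 to day 7 of 2.64 (Nons), 1.74 (Smarcc1.6) and 2.06 (Smarcc1.7). Day 4 minus Day0, which also crosses the sets, was -0.06 for Nons, 0.46 for Smarcc1.6 and 0.26 for Smarcc1.7. For Slc2a3 it was -2.71, -1.37 and -1.79 in the same order. On day 6 Slc2a1 exceeded Day0 by 1.77 to 1.88. An antisense gene, Gm12868, overlaps 3582 bases at the end of Slc2a1 (chr4:119133749-119137330) and carried 4.29% to 5.07% as many reads. Gm12868 rose by 2.19 from day 4 to day 7 (adjusted p = 9.83e-08, limma), close to the rise of Slc2a1. The strand setting of the counting was not given in the sources used here, so reads of the pair cannot be told apart.

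The hexokinases changed little from day 4 to day 7. Hk2, the inducible hexokinase, began at a log2 CPM of 8.56 at Day0, above every later library. The Nons libraries of days 4, 5, 6 and 7 stood at 7.70, 7.50, 7.68 and 7.41. The levels were 7.35, 7.51, 7.60 and 7.24 with Smarcc1.6, and 7.42, 7.66, 7.56 and 7.88 with Smarcc1.7. No group was the highest or the lowest on every day, and the change from day 4 to day 7 was 0.02 ± 0.13 (SE, adjusted p = 0.888), made up of -0.29 (Nons), -0.10 (Smarcc1.6) and 0.46 (Smarcc1.7). Against Day0, the day 6 libraries were lower by -0.87 to -1.0. Hk1, the hexokinase of most adult tissues, was 5.36 at Day0 and 4.92 to 5.85 in the 12 libraries. Its rise from day 4 to day 7 was 0.39 ± 0.11 (SE, adjusted p = 0.00962), and 0.15 (adjusted p = 0.24) after centring on the autosomal median.

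The phosphofructokinases moved in opposite directions. Pfkp, the platelet-type subunit, began at a log2 CPM of 8.71 at Day0, followed by 8.89 on day 4 in Nons and by 6.42, 6.25 and 6.48 on days 5, 6 and 7. The Smarcc1.6 libraries went from 9.43 to 7.98, 6.90 and 6.43, and those of Smarcc1.7 from 9.30 to 7.60, 6.95 and 6.83. Day 4 of every group exceeded Day0, and all later libraries lay below it. The change from day 4 to day 7 was -2.63 ± 0.21 (SE, adjusted p = 1.39e-06), and the first day took -2.47 of it for Nons, -1.45 for Smarcc1.6 and -1.70 for Smarcc1.7. Within the set of Day0 and day 6, Pfkp was lower on day 6 by -2.46 (Nons), -1.81 (Smarcc1.6) and -1.76 (Smarcc1.7). The end of Pfkp shares 372 bases with Pitrm1 on the other strand (chr13:6579768-6580139), and Pitrm1 carried 15.2% to 129% as many reads as Pfkp. Pitrm1, a mitochondrial peptidase, changed by -0.08 from day 4 to day 7 (adjusted p = 0.3), against -2.63 for Pfkp. Whether reads of the shared bases entered the level of Pfkp was not tested.

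Pfkl, the liver-type subunit, was 8.11 at Day0. It was 8.45, 9.28, 9.53 and 9.27 in Nons, 7.96, 9.12, 9.68 and 9.41 with Smarcc1.6, and 8.01, 9.16, 9.86 and 9.69 with Smarcc1.7. It climbed from day 4 to day 6 in each group and was lower on day 7 than on day 6 by -0.17 to -0.28, where the steps around day 6 cross the sets of read assignment. The change from day 4 to day 7 was 1.32 ± 0.14 (SE, adjusted p = 9.58e-06).

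Aldoc, the brain-type aldolase, had the fewest reads of the 10 in 1 library, as given above. Its log2 CPM was 3.88 at Day0 and then 1.76, 2.24, 3.82 and 4.81 in Nons, 2.35, 2.28, 3.88 and 4.99 with Smarcc1.6, and 2.07, 2.55, 4.68 and 6.05 with Smarcc1.7. It was lowest on days 4 and 5 and highest on day 7 in each group. It rose by 3.22 ± 0.22 (SE, 9.33-fold, adjusted p = 5.01e-07) from day 4 to day 7. Day 6 differed from Day0 by -0.06 in Nons, 0.00 with Smarcc1.6 and 0.80 with Smarcc1.7.

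Both lactate dehydrogenase genes rose. Ldha, the subunit that predominates in muscle and in glycolytic cells, was 9.86 at Day0, then 10.62, 11.41, 11.44 and 11.77 in Nons, 9.90, 11.22, 11.42 and 11.92 with Smarcc1.6, and 10.09, 11.34, 11.61 and 11.75 with Smarcc1.7. Its change from day 4 to day 7 was 1.61 ± 0.14 (SE, 3.05-fold, adjusted p = 2.62e-06), with 0.79 to 1.32 of it between days 4 and 5. Ldhb, the subunit that predominates in heart, was 4.64 at Day0, then 4.64, 5.96, 5.74 and 7.24 in Nons, 4.74, 5.27, 5.37 and 6.96 with Smarcc1.6, and 4.70, 5.53, 5.57 and 6.98 with Smarcc1.7. On day 4 the 3 groups stood level with Day0. That comparison and the step from day 6 to day 7, at 1.42 to 1.58, cross the sets of read assignment. A pseudogene took a larger share of the Ldhb reads at Day0 and on day 6, as described below. The change of Ldhb from day 4 to day 7 was 2.37 ± 0.12 (SE, 5.16-fold, adjusted p = 8.85e-08).

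Pdk1 did not climb steadily. It was 6.12 at Day0, then 6.04, 6.45, 7.04 and 6.72 in Nons, 6.78, 6.85, 7.43 and 6.84 with Smarcc1.6, and 6.58, 6.89, 7.58 and 7.00 with Smarcc1.7. Day 6 was the highest day in each group, and day 7 was below it by -0.32 to -0.59. The steps into and out of day 6 cross the sets of read assignment. The change from day 4 to day 7 was 0.39 ± 0.10 (SE, adjusted p = 0.00495) and became 0.15 (adjusted p = 0.188) after centring. Fitted as a slope over the 4 days, 7 of the 10 genes passed the test, against 60.5% of all tested genes. Hk1, Hk2 and Pdk1 did not, with slopes of 0.11, 0.01 and 0.18 per day. Without day 6, Hk1 (0.14, adjusted p = 0.0372) and Pdk1 (0.12, adjusted p = 0.0335) passed too, and without day 7 the slope of Pdk1 was 0.44 per day (adjusted p = 0.000648). Without day 4, the slopes of Pfkl (0.14, adjusted p = 0.305), Ldha (0.24, adjusted p = 0.0529) and Pfkp (-0.38, adjusted p = 0.0516) no longer passed, which left 4 members called.

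Related genes of the same step could be compared after division by the combined length of all their annotated exons (GENCODE M21). It was 7245 bases for Slc2a3, 3506 for Slc2a1, 13401 for Pfkp and 6675 for Pfkl. Expressed transcripts can be shorter, so a ratio above or below 1 can depend on this choice. Changes of a ratio between days do not. Without this division, Slc2a3 exceeded Slc2a1 on day 7 by 0.43 to 0.88 log2 units, and Pfkp exceeded Pfkl on day 4 by 0.45 to 1.47. These ratios are a description with no test. Slc2a3 stood at 1.18 times Slc2a1 per kb at Day0, at 0.188 to 0.333 times on day 4 and at 0.652 to 0.89 times on day 7. Its log2 difference from Slc2a1 changed by 1.56 ± 0.55 (SD, n = 3 groups) from day 4 to day 7, so the balance returned towards that of Day0 while both genes rose. Pfkp went from 0.753 times Pfkl at Day0, and 0.679 to 1.38 times on day 4, to 0.0634 to 0.0719 times on day 7, a change of -3.95 ± 0.63 (SD, n = 3 groups) log2 units. Day 5 separated the groups in this ratio, at 0.069 (Nons), 0.227 (Smarcc1.6) and 0.169 (Smarcc1.7).

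Hk2 remained above Hk1 in every library, at 13.1 times per kb at Day0 and 4.87 to 9.69 times later, with a change of -0.36 ± 0.21 (SD, n = 3 groups) from day 4 to day 7. Ldhb remained far below Ldha, at 0.0568 times per kb at Day0, 0.0333 to 0.0589 times on day 4 and 0.0677 to 0.0916 times on day 7. Its log2 difference from Ldha changed by 1.46 (Nons), 0.20 (Smarcc1.6) and 0.62 (Smarcc1.7), with a mean of 0.76 ± 0.64 (SD, n = 3 groups). The direction was shared by the groups but the size varied between them by as much as the mean.

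**Figure D2:**
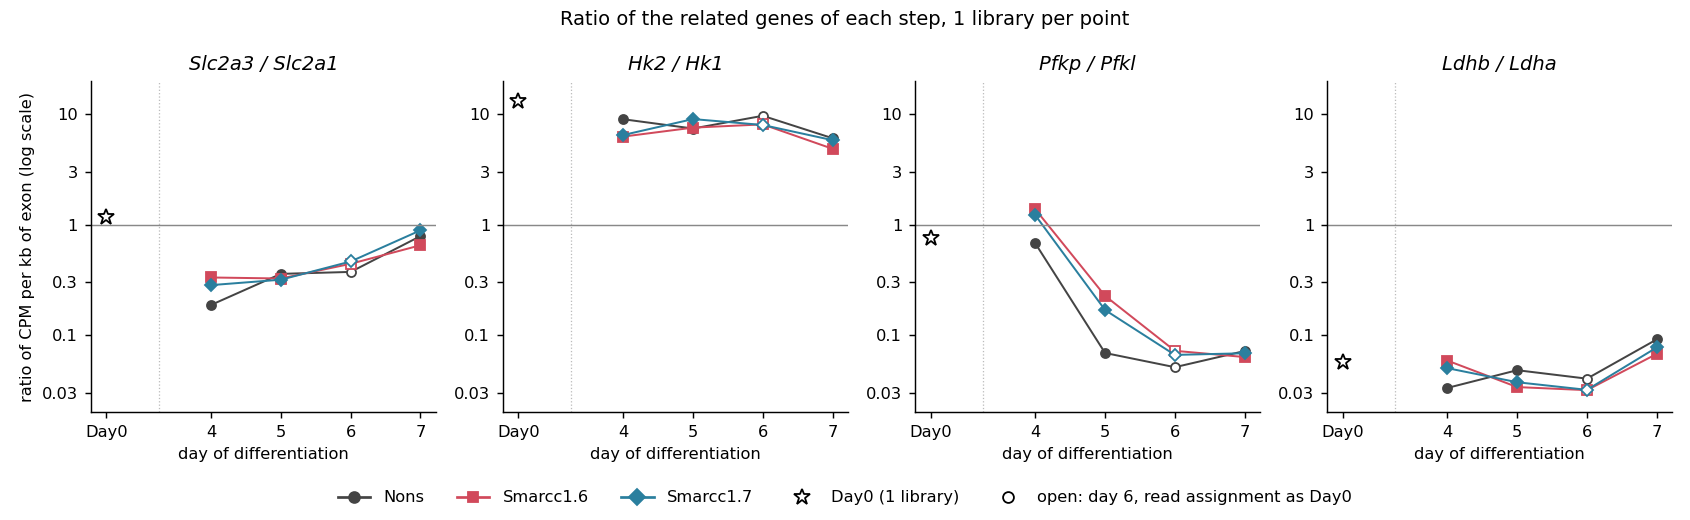
Ratio of CPM per kb of exon between the related genes of a step (y axis, log scale) at Day0 and on days 4 to 7 (x axis), 1 library per point; the grey line marks equal levels and open symbols the set of Day0 and day 6. With the exon lengths used, Pfkp over Pfkl was 0.679 to 1.38 on day 4 and at most 0.227 from day 5 on. Hk2 over Hk1 and Ldhb over Ldha each stayed on 1 side of the grey line.

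The second comparison asked whether the 10 genes responded to depletion of Smarcc1. Pdk1 and Pfkp were higher in knockdown than in same-day Nons, and the other 8 did not pass the test. That is 2 of 10 genes, against 11.6% of all tested genes, 6.88% higher and 4.77% lower (limma with day as a block). The median log2 difference was 0.10 over the 10 genes and -0.01 over all tested genes. The comparisons of the hairpins share the 4 Nons libraries.

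Pdk1 was higher than Nons on each day with each hairpin. The differences on days 4, 5, 6 and 7 were 0.74, 0.40, 0.39 and 0.12 with Smarcc1.6 and 0.54, 0.45, 0.54 and 0.28 with Smarcc1.7. The hairpins overlapped, and day 7 was the smallest difference of both. The estimate was 0.43 ± 0.07 (SE, 1.35-fold, adjusted p = 0.00563), with a mean of 0.41 ± 0.25 (SD, n = 4 days) for Smarcc1.6 and 0.45 ± 0.12 (SD, n = 4 days) for Smarcc1.7. Fitted in a model of 3 groups, Pdk1 passed for Smarcc1.6 (adjusted p = 0.0176, 9.3% of all tested genes passed) and for Smarcc1.7 (adjusted p = 0.0323, 2.45% passed). A difference above Nons in all 8 same-day comparisons was found in 7.89% of all tested genes, and 2 of the 10 genes, Pdk1 and Aldoc, had it. The knockdown estimate kept its call without any 1 day or any 1 library, and each hairpin's call in the model of 3 groups was lost without day 5 (adjusted p = 0.129 and 0.178) and without day 6 (0.094 and 0.235), for Smarcc1.6 also without day 4 (0.0543). Leaving out 1 library ended the Smarcc1.6 call in 3 of 12 fits (without the Nons library of day 5 or 6, or the Smarcc1.6 library of day 5) and the Smarcc1.7 call in 8 of 12 (without the Nons library of day 5 or 6, the Smarcc1.6 library of day 5 or 6, or any of the 4 Smarcc1.7 libraries). The knockdown estimate lost its call with day left out as a block (adjusted p = 1), with Smarcc1.6 alone (0.106) and with Smarcc1.7 alone (0.0652).

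Pfkp was higher by 0.54, 1.56, 0.65 and -0.04 with Smarcc1.6 on days 4, 5, 6 and 7, and by 0.41, 1.17, 0.70 and 0.35 with Smarcc1.7. Day 5 held the largest difference of each hairpin, and 7 of 8 comparisons were above Nons. The estimate was 0.67 ± 0.15 (SE, 1.59-fold, adjusted p = 0.0187), 0.68 ± 0.66 (SD, n = 4 days) for Smarcc1.6 and 0.66 ± 0.38 (SD, n = 4 days) for Smarcc1.7. Without day 5 the estimate was 0.43 (adjusted p = 0.068), and without the Nons library of that day it was also 0.43 (adjusted p = 0.0661). Without day 6 it was 0.66 (adjusted p = 0.103) and without the Nons library of day 6 it was 0.66 (adjusted p = 0.0668). Leaving out the block gave an adjusted p of 1. With Smarcc1.6 alone (0.18) or Smarcc1.7 alone (0.0842) it did not pass. In the model of 3 groups Pfkp passed for Smarcc1.6 (adjusted p = 0.0462) and not for Smarcc1.7 (adjusted p = 0.087). The Smarcc1.6 call was lost in 3 of 4 fits without 1 day and in 9 of 12 without 1 library. It was also lost with a stricter filter (0.0518), with no trend (0.0941) and after thinning reads to the smallest depth (0.0507). For Smarcc1.7 a call was gained in 1 of 12 fits without 1 library. Pitrm1, which overlaps Pfkp, differed by -0.02 ± 0.05 (SE, adjusted p = 0.801).

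**Figure D3:**
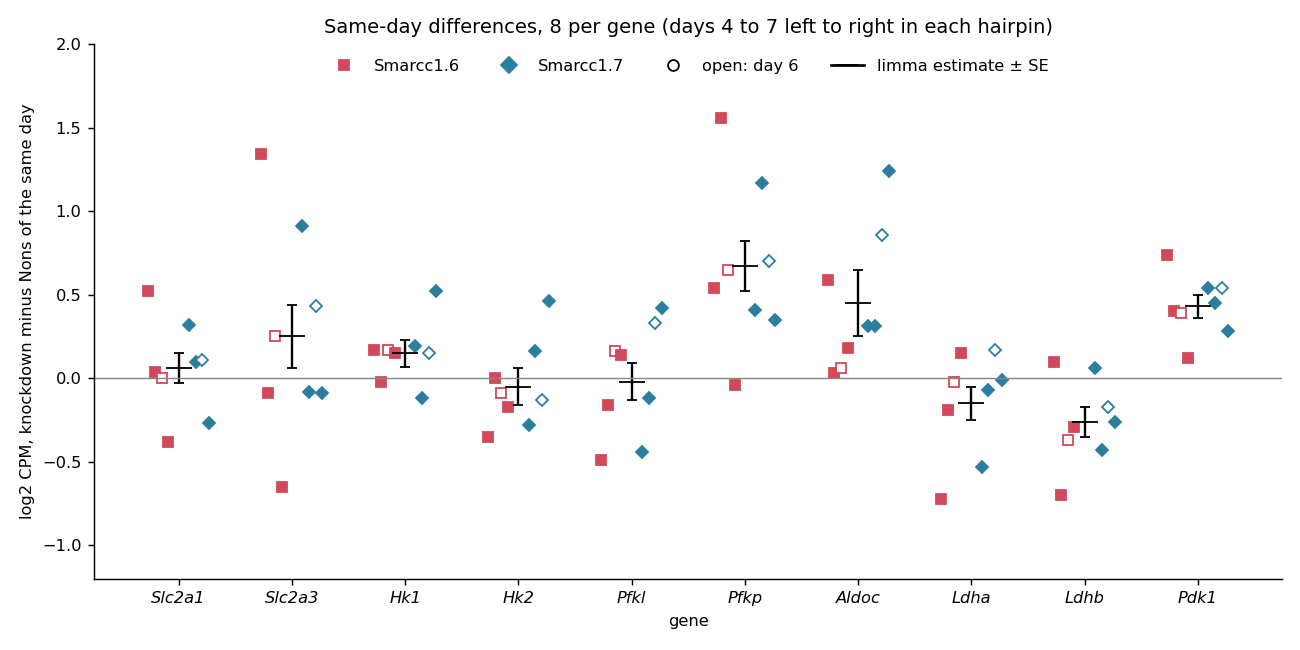
Log2 CPM in knockdown minus Nons of the same day (y axis) for each gene (x axis), 4 days per hairpin, with day 6 as open symbols and the limma estimate ± SE as black bars. All 8 points of Pdk1 lie above 0, those of Pfkp peak on day 5, and those of Slc2a3 run from 1.34 to -0.65.

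Aldoc was above Nons in 8 of 8 comparisons without passing the test, at 0.45 ± 0.20 (SE, adjusted p = 0.165). Its differences were 0.59, 0.03, 0.06 and 0.18 with Smarcc1.6 and 0.31, 0.31, 0.86 and 1.24 with Smarcc1.7. Ldhb was below Nons in 6 of 8, at -0.26 ± 0.09 (SE, adjusted p = 0.09), with 0.10 and 0.06 on day 4 and -0.17 to -0.70 on the later days. Ldhb passed as lower at -0.37 without day 4 (adjusted p = 0.0266, limma) and without the Nons library of day 4 (0.0153). Those were 1 of 4 fits without a day and 1 of 12 without a library. Slc2a3 differed by 0.25 ± 0.19 (SE, adjusted p = 0.432). It was above Nons by 1.34 and 0.91 on day 4, the day on which Nons had its lowest level, and by -0.65 and -0.09 on day 7. Without day 4 the estimate was -0.04. Ldha and Pfkl, in contrast, had their lowest differences on day 4, at -0.72 and -0.53 for Ldha and at -0.49 and -0.44 for Pfkl.

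The other estimates were 0.06 for Slc2a1, 0.15 for Hk1, -0.05 for Hk2, -0.02 for Pfkl and -0.15 for Ldha, with adjusted p-values of 0.261 to 0.926. The direct test of one hairpin against the other called none of the tested genes in limma (0 genes, with 530 at an unadjusted p under 0.05), and Aldoc was the member with the largest such difference, at -0.46 ± 0.19 (SE, adjusted p = 0.989). The test for a change per day that differs between knockdown and Nons called no gene (0 genes in limma, 682 at an unadjusted p under 0.05). None of the 10 had an unadjusted p under 0.05 (0 genes). Slc2a3 had the largest such estimate of the 10, at -0.41 ± 0.20 per day (SE, unadjusted p = 0.0686, limma). A missing call does not show that the changes were equal.

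The rest of the pathway was followed through lists of named genes, which were chosen with earlier results of these data known. Over all tested genes, 72.5% passed from day 4 to day 7 (40.7% higher, 31.7% lower) and 11.6% in knockdown (6.88% higher, 4.77% lower). Of 13 further tested glycolysis genes, 11 rose from day 4 to day 7 and 1 fell, with a median change of 0.86. Eno2, the neuronal enolase, rose by 5.39 ± 0.36 (SE), Tpi1, triosephosphate isomerase, by 2.58 ± 0.14 and Eno3, the muscle enolase, by 2.03 ± 0.16. Pfkm, the muscle phosphofructokinase, was the 1 that fell, by 0.49 on the log2 scale. In knockdown, 2 of the 13 passed. Pfkm was higher by 0.50 ± 0.12 (SE, adjusted p = 0.0197, 8 of 8 comparisons), in the same direction as Pfkp, and Eno3 was lower by -0.49 ± 0.12 (SE, adjusted p = 0.0237, 8 of 8). Without day 5, without day 6 or without the block neither passed (0 of 13).

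Of 6 tested carriers of glucose and lactate, 5 rose from day 4 to day 7 and 1 fell. Slc2a12, a facilitative carrier, rose by 2.34 ± 0.21 (SE), the lactate exporter Slc16a3 by 1.89 ± 0.17 and Bsg, the chaperone of lactate carriers, by 1.23 ± 0.09. Slc5a1, a sodium-coupled glucose carrier, fell by 5.86 on the log2 scale, from a mean of 4.76 on day 4 to -1.10 on day 7. In knockdown Slc5a1 was higher by 1.80 ± 0.34 (SE, adjusted p = 0.00784) and Slc16a3 lower by -0.53 ± 0.14 (SE, adjusted p = 0.0301), each in 8 of 8 comparisons. Without day 6 or without the block neither passed (0 of 6), and Slc16a3 did not pass without day 4 (adjusted p = 0.0519) or day 5 (0.106) either. Slc5a1 had as few as 3 reads in a library. Of 5 regulators of phosphofructokinase, 3 rose (after centring, 3 rose and 2 fell) and none passed in knockdown (0 genes). The rises were those of Pfkfb3, an inducible kinase that makes the activator of phosphofructokinase, at 2.90 ± 0.13, Pfkfb1 at 1.25 ± 0.12 and Pfkfb4 at 0.89 ± 0.19 (SE).

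Of 12 tested genes of pyruvate entry into mitochondria, 2 rose and 4 fell from day 4 to day 7, with a median of -0.14. Centred on the autosomal median, 2 rose and 9 fell, with a median of -0.38. Pdk2 rose by 1.24 ± 0.32 (SE) and the phosphatase Pdp1 by 0.73 ± 0.13, whereas the kinase Pdk4 fell by 1.18 on the log2 scale. Brp44l, a subunit of the mitochondrial pyruvate carrier, fell by 2.71 and Pdhb, a subunit of pyruvate dehydrogenase, fell by 0.64. In knockdown Pdha1, the target of the Pdk kinases, was lower by -0.25 ± 0.07 (SE, adjusted p = 0.0321, 7 of 8 comparisons), and the other 11 did not pass. Pdha1 passed without day 4 and lost its call without day 5 (adjusted p = 0.178), day 6 (0.196) or day 7 (0.065), in 7 of 12 fits that left out 1 library, and without the block (0 of 12). Of 7 pentose phosphate genes, 2 rose (Pgls by 1.28 ± 0.11 and Taldo1 by 0.36 ± 0.07, SE), 3 fell (Rpia at -1.18, Rpe at -0.60 and G6pdx at -0.54) and none passed in knockdown (0 genes). Centring gave 1 rise and 4 falls.

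Of 10 tested genes of gluconeogenesis and glycogen, 5 rose and 4 fell from day 4 to day 7, and 4 rose and 5 fell after centring. Pygl, the liver glycogen phosphorylase, rose by 4.20 ± 0.24 (SE), Pck2 by 2.41 ± 0.19 and Gys1, glycogen synthase, by 1.99 ± 0.14, whereas Fbp1, fructose bisphosphatase, fell by 2.97, Pcx, pyruvate carboxylase, fell by 1.99 and Pygm fell by 1.09 on the log2 scale. Gys1 was higher in knockdown by 0.43 ± 0.11 (SE, adjusted p = 0.031) and Fbp1 by 0.98 ± 0.21 (SE, adjusted p = 0.0154). Neither passed without day 5, without day 6 or without the block (0 of 10), and Gys1 did not without day 4 (adjusted p = 0.097). Leaving out 1 library ended the call of Gys1 in 6 of 12 fits and that of Fbp1 in 1. Pcx passed for Smarcc1.6 at 0.44 ± 0.12 (SE, adjusted p = 0.0451), was not called without day 5 (0.28), day 6 (0.248) or day 7 (0.0555), and stood at 0.23 for Smarcc1.7 (adjusted p = 0.287).

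Of 18 transcriptional regulators, 6 rose and 8 fell from day 4 to day 7, and 4 rose and 10 fell after centring. Epas1, which encodes hypoxia-inducible factor 2 alpha, fell by 6.14 on the log2 scale, Esrrb, a nuclear receptor of undifferentiated mESCs, fell by 3.98 and Mycn fell by 1.92. Egln1, a prolyl hydroxylase that marks hypoxia-inducible factors for decay, rose by 2.95 ± 0.18 (SE), Mycl1 by 1.65 ± 0.10 and Vhl, part of the ligase that degrades them, by 0.99 ± 0.10. In knockdown 4 were higher and 1 lower. Epas1 was higher by 1.05 ± 0.18 (SE, adjusted p = 0.00624), Esrrb by 1.00 ± 0.16 (0.00475), Mlxipl by 0.88 ± 0.26 (0.0468) and Egln3 by 0.75 ± 0.16 (0.0153), each in 8 of 8 comparisons, and Mycl1 was lower by -0.32 ± 0.07 (0.0194). Epas1 and Esrrb kept their calls without any 1 day or library. Mlxipl lost its call without each of the 4 days in turn (adjusted p = 0.0647 to 0.151) and in 10 of 12 fits that left out 1 library. Egln3 lost it without day 5 (0.066) or day 6 (0.107) and Mycl1 without day 4 (0.055) or day 5 (0.123), and without the block none passed (0 of 18). Mycn passed for Smarcc1.6 at 0.39 ± 0.09 (adjusted p = 0.0234), was not called without day 4 (0.0511), day 5 (0.103) or day 6 (0.112), and stood at 0.19 for Smarcc1.7.

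Genes outside glycolysis that are known to be induced by hypoxia were followed beside them. From day 4 to day 7, 10 of 11 tested rose and Kdm3a, a histone demethylase, fell by 1.25 on the log2 scale. The growth factor Vegfa rose by 4.03 ± 0.21 (SE), the peptide Adm by 3.92 ± 0.34 and the collagen hydroxylase P4ha2 by 3.11 ± 0.16, and the median of the list was 1.80. In knockdown 5 of 11 were higher and none lower (0 genes), with a median of 0.52, against 6.88% higher and 4.77% lower over all tested genes. These were Ankrd37 at 0.72 ± 0.14 (SE, adjusted p = 0.00877), Ddit4 at 0.58 ± 0.14 (0.0197), Kdm3a at 0.57 ± 0.09 (0.00444), Ndrg1 at 0.52 ± 0.14 (0.0375) and Ero1l at 0.38 ± 0.11 (0.0483). Adm passed for Smarcc1.7 at 1.51 ± 0.30 (SE, adjusted p = 0.0333) and stood at 0.57 for Smarcc1.6. Without day 5, without day 6, and with either hairpin alone, 2, 2, 0 and 0 of the 11 passed, and without day as a block none did (0 genes). Ero1l (adjusted p = 0.118, limma) and Ndrg1 (0.0874) did not pass without day 4 either. Leaving out 1 library ended the call of Ero1l in 10 of 12 fits and that of Ndrg1 in 9. It ended those of Ankrd37, Ddit4 and Kdm3a in 0.

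**Figure D4:**
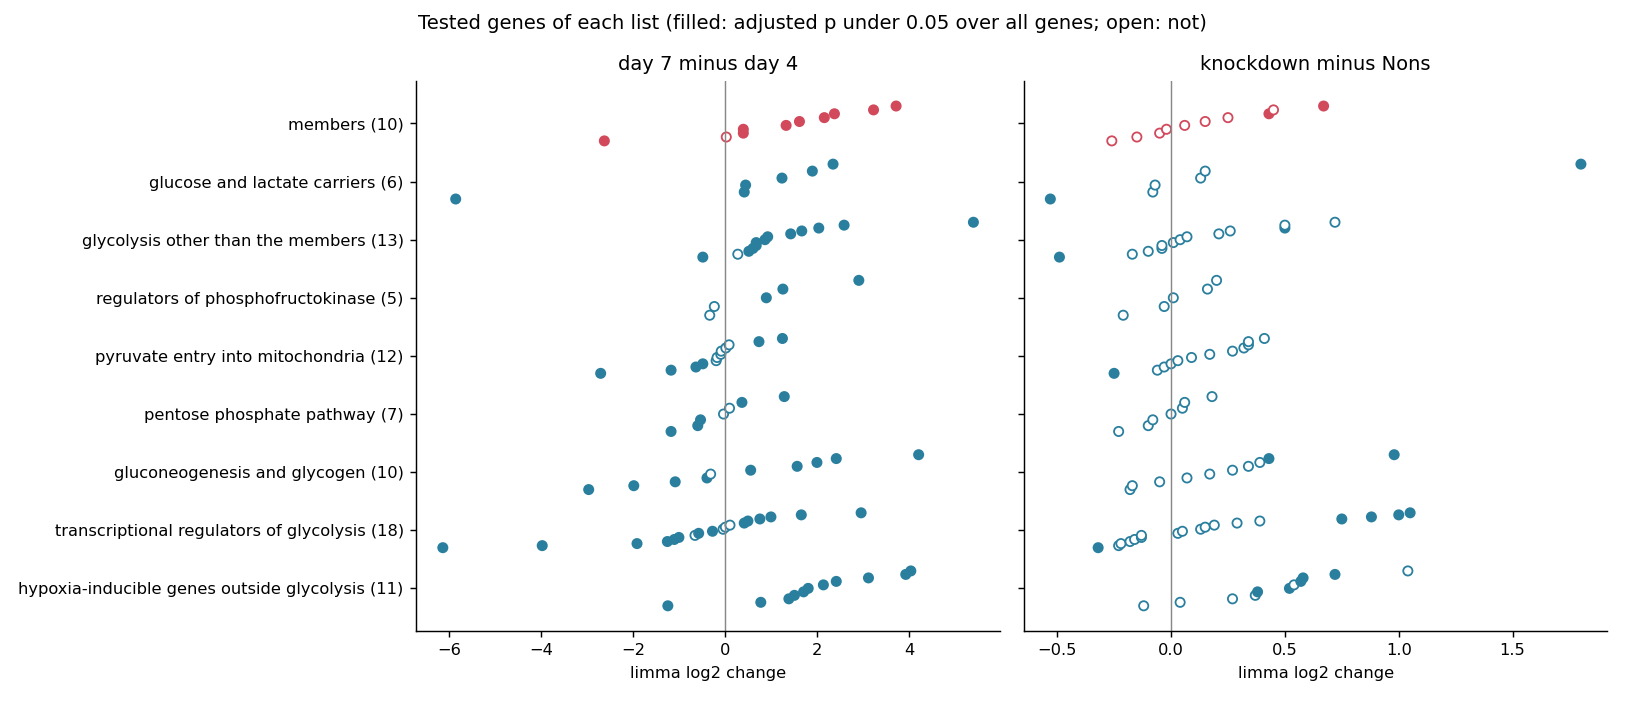
Limma log2 change of every tested gene of the 10 members and of 8 lists, from day 4 to day 7 (left) and in knockdown minus Nons (right); each list is a row with its number of tested genes, genes are ordered by value, and filled points have an adjusted p under 0.05. On the left most members and hypoxia-inducible genes lie above 0, and on the right most points of every list are open.

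The last question was whether the level of a gene on day 6 and at Day0 rested on how its reads were assigned, since processed pseudogenes are copies of spliced transcripts and share their sequence. Among annotated processed pseudogenes, those sharing at least 10% of their 25-base words with a gene were assigned to it. Of the 10 genes, 8 had none (0 pseudogenes). Ldha had 17, of which 0 had a row in the table, and Ldhb had 1, Gm5514 (chr19:21937380-21938381), which shares 61.8% of its words. The reads on Gm5514 amounted to 13.4% of those on Ldhb and Gm5514 together at Day0 and 14.7% to 16.9% on day 6, against 3.02% to 5.98% in the other 9 libraries.

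Day 6 was set against the mean of days 5 and 7 in each group. Over all tested genes the median of this difference was 0.09, with 5% of genes below -0.73 and 5% above 0.72. Ldhb was lower on day 6 by -0.76 on average, at -0.86 (Nons), -0.74 (Smarcc1.6) and -0.69 (Smarcc1.7), which put it at percentile 4.57 of all genes. Ldha stood at -0.08, Hk1 at -0.28 and Pfkp at -0.26. Pdk1 had the highest value of the 10, at 0.56 (percentile 92.0), and the remaining 5 lay between 0.08 and 0.37. The day 7 against day 4 estimate of Ldhb, 2.37, was the same when day 6 was left out. The day 6 libraries did enter the fit that gave its SE and adjusted p.

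Several glycolysis genes outside the 10 had larger values of the same difference. Pgk1 was lower on day 6 by -4.61, Eno1 by -3.43, Gapdh by -2.33, Pgam1 by -1.80 and Gpi1 by -0.82. Pseudogenes took 47.8% to 48.3% of the reads of Gpi1 and its pseudogene in Day0 and day 6, against 1.94% to 2.33% elsewhere. For Gapdh they took 47.7% to 57.4% against 5.71% to 7.75%, and for Pgk1 31.0% to 36.7% against 0.405% to 0.612%. Only 14 of the 105 pseudogenes of Gapdh and 2 of the 5 of Pgk1 had a row in the table, so these shares leave out the other copies. Eno1 and Pgam1 had 3 such pseudogenes each, of which 0 had a row in the table, so no share could be given for them. A share rises with more reads on the pseudogenes and also with fewer reads on the gene, so it does not give the size of the day 6 difference. How much of the day 6 difference of any gene, Ldhb included, these reads make up was not tested. The cause of the different assignment was not tested either.

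**Figure D5:**
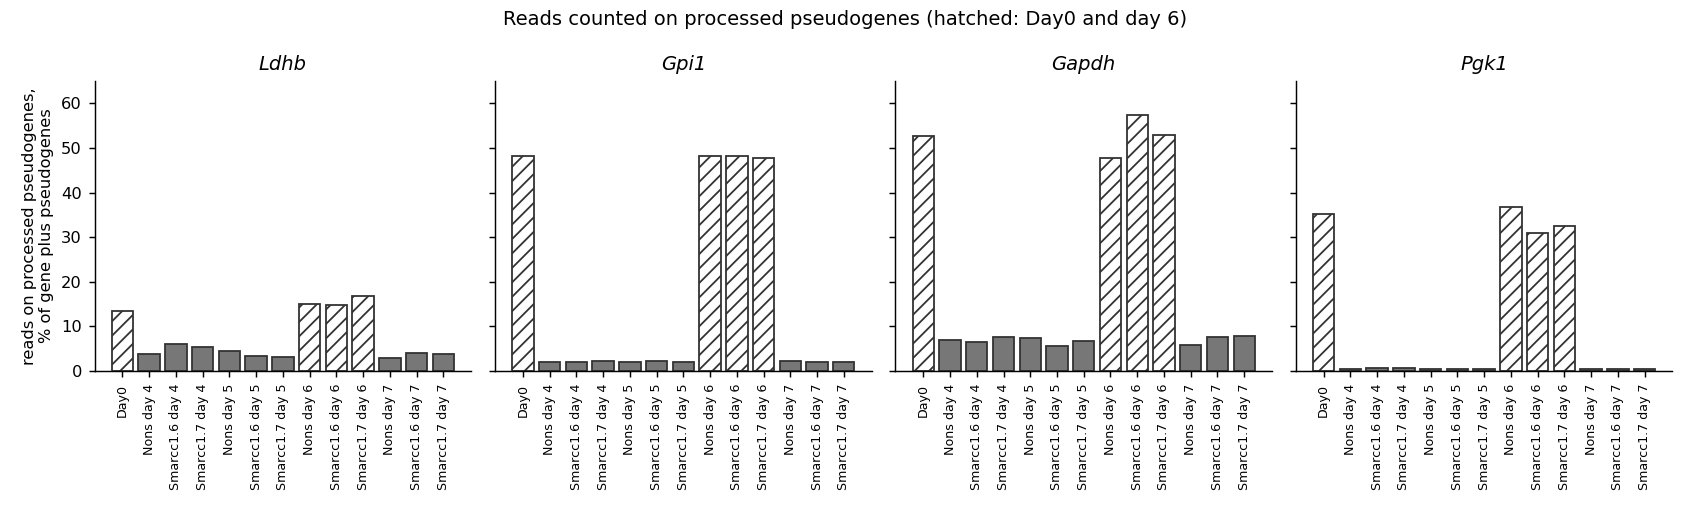
Reads on processed pseudogenes as a percentage of those on the gene and its pseudogenes (y axis, from 0) in each library (x axis) for Ldhb and, for comparison, Gpi1, Gapdh and Pgk1; hatched bars are Day0 and day 6. The share of Ldhb is 13.4% to 16.9% in the hatched libraries and at most 5.98% in the others, a smaller contrast than for the other 3 genes. For Gapdh 14 of 105 pseudogenes and for Pgk1 2 of 5 could be counted.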

How the data were processed

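The deposited values were log2 CPM of 13 RNA-seq libraries, both alleles together. Per the labels and methods, the authors made TruSeq libraries, sequenced them paired-end on a NextSeq500, trimmed them with trim_galore, aligned them with tophat or hisat2 to mm10 with FVB/CAST differences masked, and counted reads per gene in Seqmonk. The submitters' processing notes name TopHat2 2.0.12. Which aligner served which library, the strand setting and the annotation release were not given in the sources used here. The values fell on steps of whole reads (100% of low values within 0.01 read), with 0 reads written as 0.9, which gave the depths. The count test on recovered reads was not run. Intervals between libraries cover their spread, which may be technical.

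Testing covered genes whose log2 CPM averaged 0 or more in the 12 libraries of days 4 to 7, with limma 3.58.1 in R 4.3.3 (lmFit, eBayes with trend) and Benjamini-Hochberg adjustment over all tested genes, threshold 0.05. Knockdown models had day as a block, since the labels give the day of harvest: deviations from group means correlated at 0.74 to 0.96 between libraries of the same day and at most 0.72 between days. Models were tested on simulated data. Exon lengths, overlaps and pseudogenes came from GENCODE M21 (GRCm38, as mm10). Named genes were the 10 members, list genes called for knockdown or a hairpin, and the 3 largest rises and 3 largest falls per list among genes called from day 4 to day 7; cell type markers and genes of the read assignment check were named beside them. The members and lists were chosen with earlier results of these data known. Python 3.11.15, numpy 2.4.6, pandas 2.3.3 and matplotlib 3.10.9 were used.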

Additional observations from a re-analysis of the deposited data

Results flagged for a closer look

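Over the 10 genes, 50 sets of 4 values were examined for a value far from the rest (the 4 days of each group, and the 4 same-day differences of each hairpin). If the 4 values of a set were interchangeable, about 1 in 20, or 2.5 of 50, would be flagged, and 3 were found. The days of a time course are not interchangeable and the differences share the Nons libraries, so this rate cannot judge the 3. Pfkp in Nons on day 4 stood at 8.89, apart from the other 3 days, with a gap of 0.913 of the whole range. Pdk1 with Smarcc1.6 on day 6, whose reads were assigned as at Day0, stood at 7.43, above the other days, with a gap of 0.89 of the range. The difference of Hk1 between Smarcc1.6 and Nons on day 5 was -0.02, below the other days, with a gap of 0.881 of the range.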

How the results depend on the processing

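The libraries of the same day share a block in the knockdown models. With no replicate block, knockdown called 4 genes, and each hairpin on its own 0 genes, with 0 of the 10 members in any of them. The cause of the moved counts was not tested unless fewer libraries or genes entered. With Smarcc1.6 only with Nons, 57 genes and 0 members were called for knockdown, and with Smarcc1.7 only, 0 genes and 0 members. With day 6, day 5 or another day left out in turn, knockdown called 287 to 1767 genes and 1 to 3 members, and with each library left out 611 to 2003 genes and 1 to 3 members. For Smarcc1.6 the days gave 178 to 1440 genes and 0 to 2 members, and the libraries 352 to 1694 genes and 0 to 3 members. For Smarcc1.7 the days gave 1 to 573 genes and 0 to 2 members, and the libraries 6 to 1052 genes and 0 to 2 members. The change per day was called for 6679 to 8371 genes and 4 to 9 members without a day, and for 7225 to 8063 genes and 7 to 8 members without a library. With Nons only it was called for 1620 genes and 3 members. Members called from day 4 to day 7 numbered 9 in every fit that left out a day or library.

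For Smarcc1.6, 1 member was called under a filter at 2, in a fit with no trend, and when reads were thinned to the smallest library. For Smarcc1.7 these alternatives called 188, 145 and 211 genes, and 0 members with no trend. The hairpins differed at 2 genes with no filter. Changes in the balance of related genes from day 4 to day 7 moved by less than their spread after thinning. No called change of a named gene turned its direction under an alternative. The day 6 and Day0 libraries limit comparisons of Ldhb across days, and the fewest reads of a member in a library were 82 (Aldoc), against 3 for Slc5a1 among the other named genes. The calls rest on 1 library per group and day.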
